A study of Sus scrofa with 28 samples.

Results

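Mitochondria keep a small genome of their own, and its messages are translated inside the organelle by a mitochondrial ribosome whose large-subunit (MRPL) and small-subunit (MRPS) proteins are all encoded in the nucleus. Those proteins, like most subunits of the respiratory chain, are made in the cytosol and enter through translocases of the outer (TOMM) and inner (TIMM) membrane. The chain passes electrons from complexes I (NDUF genes) and II (SDH genes) through complex III (UQCR genes), cytochrome c (CYCS) and complex IV (COX genes) to oxygen, and complex V, the ATP synthase (ATP5 genes), uses the proton gradient to make ATP. In skeletal muscle this system supplies the ATP of sustained contraction, and slow oxidative fibres hold more of it than fast glycolytic ones.

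The probe sets of this system were taken by gene symbol, that is, every probe set named MRPL, MRPS, NDUF, COX with a digit, ATP5, UQCR, SDHA to SDHD, TIMM or TOMM, together with TFAM, TFB1M, TFB2M and CYCS. Of the 5226 probe sets of the deposited table, 40 met this rule, and they represent 36 genes. They were 9 probe sets of the large and 4 of the small mitochondrial ribosomal subunit, 6 of the inner membrane translocases, 10 of complex I, 2 of complex II, 2 with complex IV names, 4 with ATP5 names, 2 of TFAM and 1 of CYCS. No probe set of the table carried a TOMM, UQCR, TFB1M or TFB2M name. All 40 passed the variation filter of the study, as did the whole table. A probe set annotated to both PRKD3 and NDUFAF7, and one annotated to MRPL55 that the study names C1orf35, were not counted as members. The probe set called MRPL12 here has that name in the study's tables and the name SIAH2 in the annotation of the array. Its values therefore hold for MRPL12 only if the study's name is right. Of the 36 genes, 5 have probe sets that can bind several transcripts, marked by _s_at or _a_at, namely MRPL2, TIMM50, NDUFA1, NDUFS3 and ATP5SL, with 6 such probe sets in all. MRPS12, TIMM50, NDUFS3 and TFAM have 2 probe sets each, called A and B here, with identifiers on the axes of the plot that sets them against each other.

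Loin muscle (Longissimus dorsi) was sampled at slaughter from 28 male suckling piglets at 28 days of age, the time of weaning, and total RNA of each piglet was hybridized to 1 porcine genome array. Of the piglets, 14 were pure Iberian (IB) and 14 came from Duroc boars and Iberian sows (DU×IB), so that dams were Iberian in both genetic types and the sires differed. There were fewer litters than piglets, and fewer for DU×IB than for IB. As the labels do not name the litter, p-values measure the spread between piglets with littermates treated as independent. Values are GCRMA expression levels on the log2 scale, on which a difference of 1 is a doubling. The level of one probe set cannot be set against that of another.

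The arrays were hybridized in 2 series, which the spike-in controls separate, with mean spike-in levels of 8.93 to 9.68 in a series of 16 arrays (8 of each genetic type) and of 6.19 to 7.01 in a series of 12 (6 of each). Array medians ran from 6.01 to 6.71 in the series of 16 and from 6.87 to 7.05 in the series of 12, and the arrays numbered 3 of both genetic types had the lowest, 6.01 in IB and 6.24 in DU×IB. Across the 40 members the mean of the series of 16 minus that of the series of 12 ran from -1.75 for TFAM (probe set A) to 1.49 for TIMM50 (probe set B), with 21 members higher and 19 lower in the series of 16. Their median was 0.18, beside -0.57 for all probe sets. Genetic types were balanced within each series. The members were fitted without the series, with it as a block, and inside either series, and values of the latter fits stand beside the calls and intervals they bear on. Skeletal muscle genes were abundant in both genetic types, with mean levels of 13.0 in IB and 13.3 in DU×IB for the myosin light chain MYL3 and of 12.3 and 12.2 for the calcium pump ATP2A1 (the brighter of its 2 probe sets). In whole muscle, fewer cells of a type and less RNA per cell cannot be told apart.

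Of the 9 large-subunit probe sets of the mitochondrial ribosome, 4 were higher in DU×IB than in IB once the hybridization series was a block. Their ratios ran from 1.39-fold for MRPL37 to 1.51-fold for MRPL12, whose probe set the array annotation names SIAH2. MRPL37, MRPL12, MRPL14 and MRPL33 passed an adjusted p of 0.10 in that fit, and no member was called lower. Import, respiratory chain, TFAM and cytochrome c probe sets did not pass in it. Without the series, none of the 40 passed with limma, when 52 of all 5226 probe sets did (0.995%), and at an unadjusted p under 0.05 there were 4 members beside 444 of all probe sets (8.50%), a share close to the background. With the series as a block, 4 of 40 members were called higher in DU×IB, beside 108 of 5226 (2.07%), and 7 were higher at an unadjusted p under 0.05, beside 8.42% of all probe sets. All 7 were mitochondrial ribosomal. MRPL12, MRPL14, MRPL33 and MRPL37 are also in the list of differential genes that the study drew from these same arrays, as is MRPS14. Neither their calls nor their direction is therefore independent evidence. Of the 35 members outside that list, 0 were called with the series as a block, and 2 had an unadjusted p under 0.05 with limma.

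The sign of the difference leaned the same way over the members. It was positive (DU×IB above IB) for 35 of 40, with a median of 0.16, beside 52.5% and a median of 0.02 for all probe sets. All 13 mitochondrial ribosomal and all 6 import probe sets were positive, with medians of 0.35 and 0.13. Of the 19 respiratory chain probe sets, counted with cytochrome c, 15 were positive, with a median of 0.10. Groups follow the gene names here and below, whatever the role of the protein. The ribosomal group thus holds MRPS36 (0.17), and the respiratory chain group holds COX10 (0.27) and ATP5SL (0.05). Members outside the study's list numbered 35, of which 30 were positive, with a median of 0.13. These counts describe the list and were not tested as a group, since probe sets of 1 pathway share the piglets and are not replicates.

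**Figure D1:**
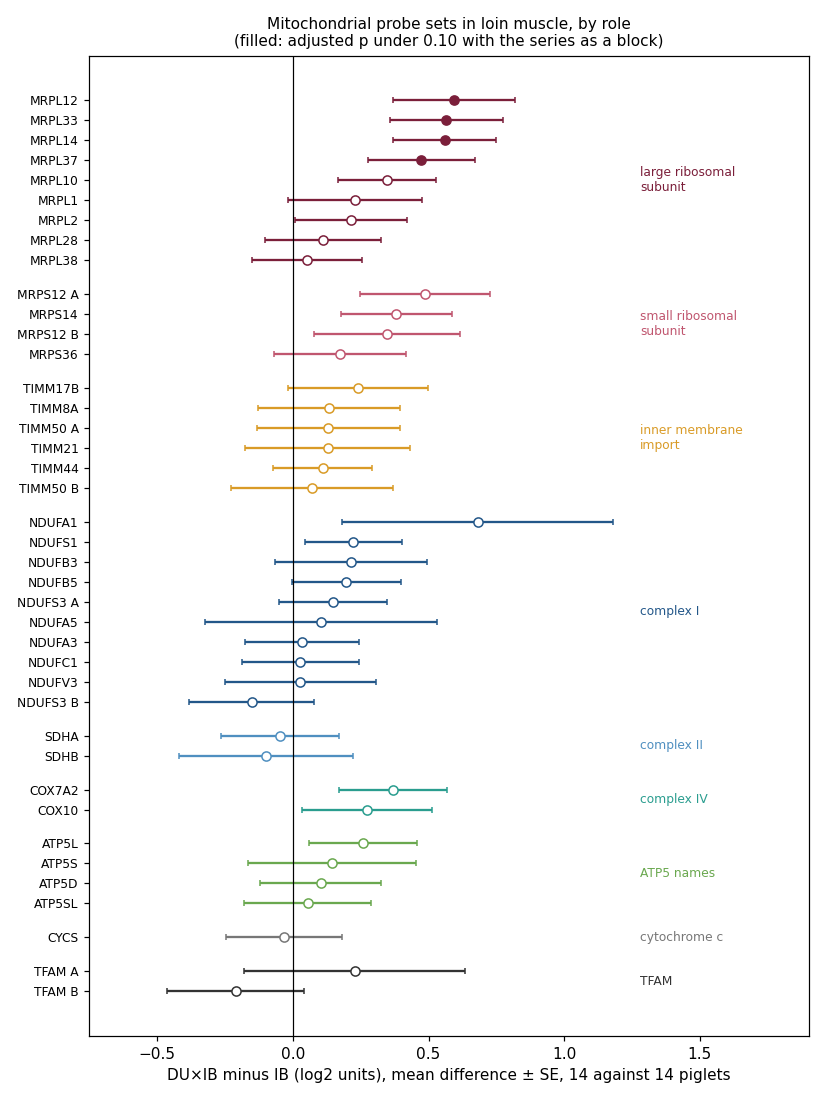
Mean difference between genetic types (DU×IB minus IB, log2 units, horizontal axis) with its standard error from the fit without the series, for each of the 40 probe sets, grouped by role. Filled points passed an adjusted p of 0.10 with the series as a block. The 4 filled points are MRPL12, MRPL33, MRPL14 and MRPL37, and 35 of 40 points lie to the right of 0.

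MRPL12 is a large-subunit protein that also binds the mitochondrial RNA polymerase, and the values below are its own only if the study's name, not SIAH2, is right. Its level had a lowest, median and highest value of 6.70, 7.44 and 8.54 in IB and of 7.13, 8.14 and 8.81 in DU×IB. The genetic types overlapped, and 12 of 14 DU×IB piglets were above the IB median. The difference was 0.59 (SE 0.22), a ratio of 1.51, with an adjusted p of 0.353 without the series. With the series as a block the SE fell to 0.15, the 95% interval was 0.30 to 0.89 and the adjusted p was 0.0270. Within the series the difference was 0.49 (SE 0.20) in the series of 16 and 0.73 (SE 0.20) in the series of 12.

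MRPL14 belongs to the conserved core of the large subunit, at the face that meets the small subunit. Its values ran from 8.51 to 10.33 with a median of 9.46 in IB, and from 9.68 to 10.41 with a median of 9.90 in DU×IB. The spread differed more than the top of the range, with SDs of 0.62 in IB and 0.22 in DU×IB. They were 0.58 and 0.21 within the series of 16, and 0.41 and 0.08 within the series of 12. DU×IB piglets came from fewer litters, and the part of litters in the spread was not tested. All 14 DU×IB piglets were above the IB median. The difference was 0.56 (SE 0.19, adjusted p = 0.255), and with the series as a block the adjusted p was 0.0588 (95% interval 0.25 to 0.87). The highest IB piglet of the series of 12 (9.57) was below the lowest DU×IB piglet (9.68). They overlapped in the series of 16, with a difference of 0.38 (SE 0.22).

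MRPL33, one of the smallest proteins of the large subunit, ran from 4.45 to 6.40 with a median of 5.58 in IB and from 5.24 to 7.21 with a median of 6.08 in DU×IB. Of 14 DU×IB piglets, 13 exceeded the IB median, and the top value, 7.21, was that of a single DU×IB piglet of the series of 12. The difference was 0.56 (SE 0.21, adjusted p = 0.332), and 0.0611 was the adjusted p with the series as a block (95% interval 0.25 to 0.88). It was the only one of these 4 with the larger difference in the series of 16, at 0.72 (SE 0.22) against 0.36 (SE 0.20) in the series of 12. Its call with the series as a block was lost when DU×IB piglet 14 was left out (adjusted p = 0.111).

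MRPL37, a large-subunit protein with no bacterial counterpart, had a lowest, median and highest level of 9.34, 10.16 and 10.96 in IB and of 9.94, 10.70 and 11.42 in DU×IB. No IB piglet of the series of 12 (up to 9.91) reached the lowest DU×IB piglet (9.94), while the genetic types overlapped in the series of 16. The difference was 0.47 (SE 0.20, adjusted p = 0.444), and with the series as a block the adjusted p was 0.0471 (95% interval 0.22 to 0.73). Of the 4 calls, centring each array on its median left MRPL12 alone (adjusted p = 0.0461). This was 1 of 40 members, beside 1.55% of all probe sets called higher in DU×IB. The adjusted p was 0.107 for MRPL33, 0.148 for MRPL14 and 0.158 for MRPL37. As the array annotation names the MRPL12 probe set SIAH2, the call left is ribosomal only if the study's name is right. The 95% intervals of the other 5 large-subunit probe sets (MRPL1, MRPL2, MRPL10, MRPL28 and MRPL38) with the series as a block reached from -0.18 (MRPL38) to 0.67 (MRPL10). Among them MRPL10, named here after its values were seen, had the largest difference, 0.35 (SE 0.18, adjusted p = 0.633, and 0.313 with the series as a block).

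**Figure D2:**
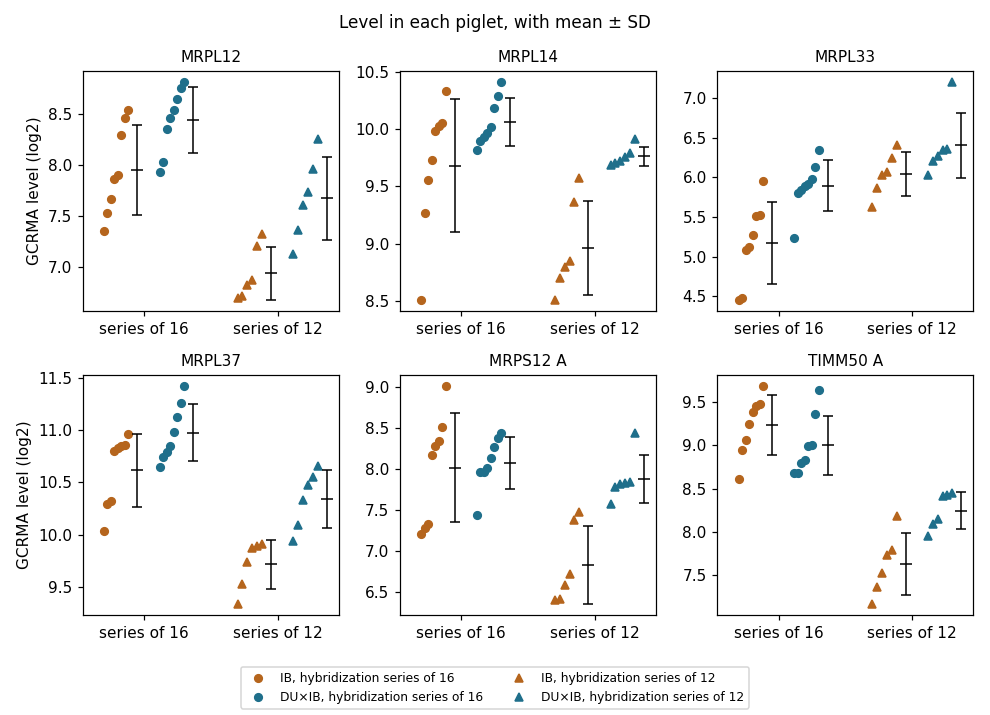
GCRMA level (log2, vertical axis) in each piglet for MRPL12, MRPL14, MRPL33, MRPL37 and the probe sets of MRPS12 and TIMM50 of lower p, by hybridization series and genetic type (IB brown, DU×IB blue), sorted from low to high, with the mean ± SD beside the points. The DU×IB piglets of the series of 12 lie above all IB piglets of the same series for MRPL14, MRPL37 and MRPS12, whereas the genetic types overlap in the series of 16 in every panel.

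In the small subunit, MRPS12, a protein of the decoding centre, was measured by 2 probe sets. The gene entry that the array annotation gives for both is listed in RefSeq as a long non-coding RNA, so the protein's name rests on that annotation. For probe set A the lowest, median and highest levels were 6.40, 7.35 and 9.02 in IB and 7.44, 7.97 and 8.44 in DU×IB. All 14 DU×IB piglets were above the IB median taken over both series, although the highest value of all was that of an IB piglet. Against the IB median of the same series, 3 of 8 were above in the series of 16 and 6 of 6 in the series of 12. The difference was 0.49 (SE 0.24, adjusted p = 0.586), and 0.248 was the adjusted p with the series as a block. It was 0.06 (SE 0.26) in the series of 16 and 1.05 (SE 0.22) in the series of 12. Probe set B differed by 0.35 (SE 0.27, adjusted p = 0.924). MRPS14, a small-subunit protein of the study's list, ran from 6.63 to 8.56 with a median of 8.05 in IB and from 7.32 to 9.02 with a median of 8.25 in DU×IB. The genetic types overlapped, and the difference was 0.38 (SE 0.20, adjusted p = 0.651, and 0.232 with the series as a block). MRPS36 carries a ribosomal name and is now known as a component of the oxoglutarate dehydrogenase complex of the citric acid cycle. Its difference was 0.17 (SE 0.24, adjusted p = 0.998), the smallest of the small-subunit names.

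The translocases of the inner membrane differed little. TIMM17B, a subunit of the channel for proteins with a cleavable presequence, ran from 6.13 to 8.67 with a median of 7.68 in IB and from 7.11 to 8.66 with a median of 7.88 in DU×IB. Its lowest values were those of IB piglets, and the difference was 0.24 (SE 0.26, adjusted p = 0.998). TIMM50, the receptor that takes presequences into that channel, differed by 0.13 (SE 0.26) for probe set A and by 0.07 (SE 0.30) for probe set B. TIMM44, which anchors the import motor, differed by 0.11 (SE 0.18), and TIMM8A, an intermembrane space chaperone, by 0.13 (SE 0.26). None of the 6 import probe sets had an unadjusted p under 0.05 with limma, without the series or with it as a block. With the series as a block their 95% intervals reached from -0.30 (TIMM21) to 0.55 (TIMM21), so that a difference of the size seen for MRPL37 was within those of TIMM17B, TIMM8A and TIMM21.

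In complex I, 9 of 10 probe sets were positive with a median of 0.12, and none had an unadjusted p under 0.05, without the series or with it as a block. NDUFS1, the subunit with most of the iron-sulfur clusters of the electron input module, had a lowest, median and highest level of 10.96, 11.70 and 12.39 in IB and of 11.32, 11.75 and 12.49 in DU×IB. The genetic types overlapped almost fully, and the difference was 0.22 (SE 0.18, adjusted p = 0.935). NDUFB5 and NDUFB3, accessory subunits of the membrane arm, differed by 0.20 (SE 0.20) and 0.21 (SE 0.28). NDUFA1, another membrane arm subunit, had the largest difference of all members, 0.68, and the largest error, 0.50 (adjusted p = 0.905). Its level ran from 2.45 to 7.38 in IB and from 4.47 to 8.54 in DU×IB, with SDs of 1.75 and 1.08, so that no direction can be given. NDUFS3, a core subunit, gave 0.15 (SE 0.20) for probe set A and -0.15 (SE 0.23) for probe set B.

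Both measured genes of complex II had a negative mean difference, far within its error. SDHA, the flavoprotein that oxidizes succinate, ran from 7.80 to 9.66 with a median of 8.45 in IB and from 7.49 to 9.58 with a median of 8.60 in DU×IB, and its mean difference was -0.05 (SE 0.22, adjusted p = 0.998). SDHB, the iron-sulfur subunit, had a difference of -0.10 (SE 0.32, adjusted p = 0.998). The ranges of both genetic types overlapped for either gene. With the series as a block the 95% intervals were -0.47 to 0.38 for SDHA and -0.58 to 0.39 for SDHB.

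COX7A2, the widely expressed form of a small complex IV subunit, had the lowest p of the respiratory chain. Its lowest, median and highest levels were 10.24, 11.26 and 12.17 in IB and 10.98, 11.56 and 12.28 in DU×IB, and 11 of 14 DU×IB piglets were above the IB median. Within the series, 3 of 8 were above the IB median in the series of 16 and 5 of 6 in the series of 12. The difference was 0.37 (SE 0.20, adjusted p = 0.653, and 0.375 with the series as a block). It was 0.01 (SE 0.21) in the series of 16 and 0.84 (SE 0.27) in the series of 12. COX10, a farnesyltransferase that makes haem O, the precursor of the haem A of complex IV, and is no subunit of it, differed by 0.27 (SE 0.24, adjusted p = 0.964). Of the ATP5 names, ATP5L, a membrane subunit of the ATP synthase, differed by 0.26 (SE 0.20) and ATP5D, a subunit of its rotating stalk, by 0.10 (SE 0.22). ATP5S (coupling factor B) and ATP5SL, an assembly factor of complex I in spite of its name, differed by 0.14 (SE 0.31) and 0.05 (SE 0.23). None of these had an unadjusted p under 0.05, without the series or with it as a block.

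CYCS, the electron carrier between complexes III and IV, ran from 12.34 to 14.61 with a median of 14.10 in IB and from 13.11 to 14.57 with a median of 13.79 in DU×IB. The ranges overlapped, and the difference was -0.03 (SE 0.21, adjusted p = 0.998). TFAM, which packages the mitochondrial genome and starts its transcription, gave 0.23 (SE 0.41) for probe set A and -0.21 (SE 0.25) for probe set B. Levels of probe set A were widely spread over both series, from 5.53 to 10.49 in IB and from 7.40 to 10.35 in DU×IB. In the series of 16 they ran from 5.53 to 9.19 in IB and from 7.40 to 9.20 in DU×IB. In the series of 12 they ran from 9.69 to 10.49 and from 9.74 to 10.35. The lowest value of either genetic type was that of the array numbered 3. With the series as a block, the 95% intervals of 39 of the 40 members lay between -1 and 1, NDUFA1 being the exception with an interval of -0.34 to 1.70.

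The difference between genetic types was mostly larger in the series of 12. In that series 5 of 40 members passed an adjusted p of 0.10, all higher in DU×IB, beside 125 of 5226 probe sets called higher (2.39%). They were MRPS12 (probe set A, difference 1.05, SE 0.22, adjusted p = 0.0645), MRPL14 (0.80, SE 0.18, adjusted p = 0.0712), MRPL37 (0.62, SE 0.16, adjusted p = 0.0914), MRPL12 (0.73, SE 0.20, adjusted p = 0.0918) and TIMM50 (probe set A, 0.62, SE 0.18, adjusted p = 0.0993). Of the members, 33 were positive, with a median of 0.34, where 44.9% of all probe sets were positive and their median was -0.05. In 4 members, MRPL14, MRPL37, MRPS12 (probe set A) and ATP5D, each of the 6 DU×IB piglets of that series was above all 6 IB piglets, as in 1.26% of all probe sets.

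None of the members passed in the series of 16 with limma, when 9 of 5226 probe sets did (0.172%), and 2 members had an unadjusted p under 0.05, beside 4.42% of all probe sets. There 26 of 40 were positive, with a median of 0.07, beside 58.8% and a median of 0.05 for all probe sets. Differences of MRPS12 (probe set A) and TIMM50 (probe set A) in that series were 0.06 (SE 0.26) and -0.23 (SE 0.19), and that of COX7A2 was 0.01 (SE 0.21) against 0.84 (SE 0.27) in the series of 12. A larger difference in the series of 12 was found for 29 of 40 members, beside 42.5% of all probe sets, and 23 of 40 had the same sign in both series, beside 55.6%. The interaction of genetic type and series passed for no member and for no probe set at an adjusted p of 0.10 with limma. At an unadjusted p under 0.05 it did so for 6 members, beside 6.37% of all probe sets. They were TIMM50 (probe set A), MRPS12 (probe set A), COX7A2, ATP5D, NDUFS3 (probe set A) and MRPL2, and their lowest adjusted p was 0.685.

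**Figure D3:**
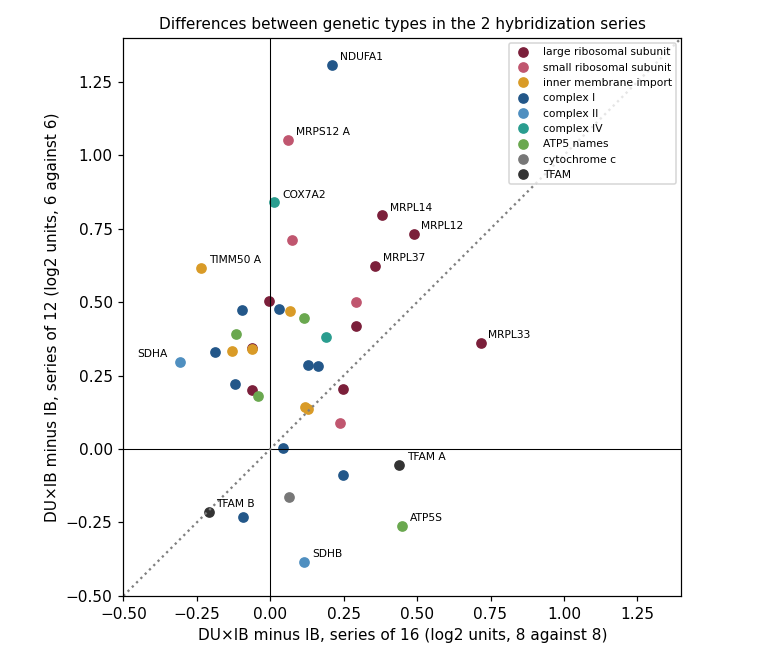
Difference between genetic types (DU×IB minus IB, log2 units) of each of the 40 probe sets in the series of 16 (horizontal axis, 8 against 8 piglets) and in the series of 12 (vertical axis, 6 against 6), coloured by role, with the line of equal differences dotted. The difference was larger in the series of 12 for 29 of 40 probe sets, which lie above the line, and MRPL33 is the large-subunit probe set furthest below it.

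Averaged over the 13 mitochondrial ribosomal probe sets in each piglet, the level ran from 7.66 to 8.58 with a median of 8.01 in IB and from 8.18 to 8.78 with a median of 8.40 in DU×IB. All 14 DU×IB piglets were above the IB median, and 2 were above every IB piglet. The highest IB piglet of the series of 12 (8.02) was below the lowest DU×IB piglet (8.18), and in the series of 16 the genetic types overlapped (7.82 to 8.58 against 8.25 to 8.78). Without the 5 genes of the study's list, 8 ribosomal probe sets remain, among them both of MRPS12 and that of MRPS36. Their mean exceeded the median of IB in 12 of the 14 crossbred piglets. Its difference was 0.24, which was 0.10 in the series of 16 and 0.44 in the series of 12. For this mean the genetic types overlapped in the series of 12 as well, with 7.57 to 7.98 in IB against 7.97 to 8.51 in DU×IB. The mean of the 19 respiratory chain probe sets exceeded the median of IB in 9 of the 14 crossbred piglets, and that of the 6 import probe sets in 10. Set against the IB median of the same series, these counts were 4 of 8 and 3 of 8 in the series of 16. In the series of 12 they were 5 of 6 and 6 of 6. Differences of these means were 0.35 for the ribosome, 0.13 for import and 0.13 for the respiratory chain, given as descriptions with no test.

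**Figure D4:**
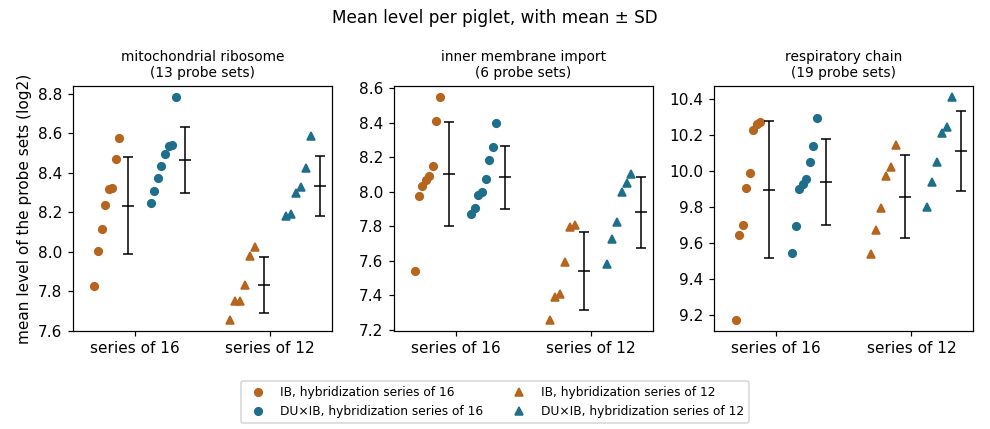
Mean log2 level per piglet (vertical axis) over the 13 mitochondrial ribosomal, 6 inner membrane import and 19 respiratory chain probe sets, by hybridization series and genetic type, sorted from low to high, with the mean ± SD beside the points. The ribosomal means of the genetic types are apart in the series of 12 and overlap in the series of 16, and the respiratory chain means overlap in both series. The ribosomal probe sets include those of the study's list, without which the means overlap in the series of 12 too.

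Many members varied together from piglet to piglet after genetic type and series were taken out, and others ran in opposite directions. The median correlation between pairs of members over the 28 arrays was 0.25, beside 0.04 for pairs of all probe sets, and 0.13 beside 0.00 after each array was centred on its median. Within the small subunit the median was 0.65 over 6 pairs, 2 of whose 4 probe sets are of MRPS12, and 0.53 after centring. For the large subunit it was 0.26 and, after centring, 0.38, and for the respiratory chain 0.29 and 0.16. The 6 import probe sets had 0.31, and -0.06 after centring. Of the 780 pairs of members, 525 correlated positively, and 469 did so after centring. NDUFB3 and NDUFB5, accessory subunits of complex I, had the closest tie of the members, at 0.95. In contrast, ATP5S ran against COX10 and against NDUFA3, at -0.72 in either pair. The median with the other members was below 0 for NDUFV3 (-0.24), MRPL33 (-0.11), NDUFA3 (-0.04) and MRPL10 (-0.02). The pairs share arrays, so these medians are descriptions.

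For the 4 genes with 2 probe sets, the agreement of the probe sets was examined within each series over 8 relations, with permutation tests of 100000 resamples and p-values adjusted over the 8. The TIMM50 probe sets rose and fell together, with Pearson r = 0.92 (adjusted p = 0.00016) and Spearman rho = 0.91 (adjusted p = 0.00016) in the series of 16, and r = 0.89 (adjusted p = 0.00072) and rho = 0.94 (adjusted p = 0.000267) in the series of 12. Without the 2 piglets farthest from the median, r was 0.88 and 0.81. The MRPS12 probe sets did likewise, with r = 0.78 (adjusted p = 0.00152) and rho = 0.84 (adjusted p = 0.000267) in the series of 16, r = 0.86 (adjusted p = 0.00107) and rho = 0.80 (adjusted p = 0.00544) in the series of 12, and 0.82 and 0.90 without the 2 farthest piglets.

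For TFAM, r was 0.72 (adjusted p = 0.0033) with rho = 0.54 (adjusted p = 0.0519) in the series of 16 and fell to 0.39 without the 2 farthest piglets (permutation p = 0.152, unadjusted), when the relation no longer passed and so rests on those piglets. For the series of 12 it was 0.57 (adjusted p = 0.0973) with rho = 0.36 (adjusted p = 0.255), and r = 0.43 without the 2 farthest. The NDUFS3 probe sets showed no relation that passed, with r = -0.35 (adjusted p = 0.216) and rho = -0.36 (adjusted p = 0.221) in the series of 16, and r = 0.09 (adjusted p = 0.777) and rho = -0.36 (adjusted p = 0.255) in the series of 12, or -0.32 and -0.43 without the 2 farthest piglets. The level of NDUFS3 therefore depends on which probe set is read. Over both series its difference between genetic types was 0.15 (SE 0.20) and -0.15 (SE 0.23), so that neither sign is established. In the series of 16 both were negative (-0.097 and -0.093).

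**Figure D5:**
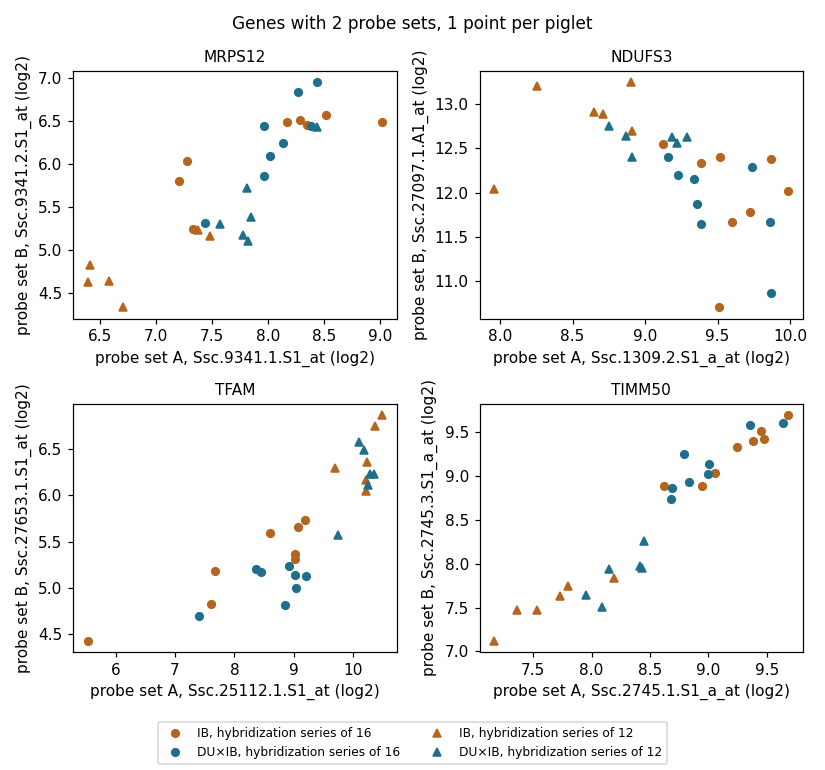
Level of one probe set against the other (both log2) in each piglet, for the 4 genes with 2 probe sets, with genetic type by colour and hybridization series by shape. The MRPS12 and TIMM50 probe sets rise together (r of 0.78 to 0.92 within a series), and those of NDUFS3 do not (r of -0.35 and 0.09).

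Other mitochondrial genes outside the rule were looked at in 5 lists with 30 probe sets of 29 genes. None passed with limma without or with the series, none had an unadjusted p under 0.05 without the series and 1 did with it, and 20 of 30 were positive with a median of 0.05. In the list of mitochondrial DNA upkeep and its nuclear regulators (7 probe sets, 4 positive), the transcription terminator relative MTERFD1 had -0.38 (SE 0.20, adjusted p = 0.641), the coactivator PPARGC1B had 0.39 (SE 0.26, adjusted p = 0.846) and the nuclear receptor ESRRG had 0.57 (SE 0.46, adjusted p = 0.940). Among translation factors and RNA handling (6, of which 3 positive), MTFMT, which formylates the initiator transfer RNA, had 0.18 (SE 0.21), the ribosome-associated PTCD3 had 0.16 (SE 0.21) and FASTKD1 had -0.14 (SE 0.26). Median differences of those lists were 0.01 and 0.01, below the 0.35 of the mitochondrial ribosomal probe sets, and the contrast was not tested. That 0.35 includes probe sets of the study's list, drawn from these same arrays. The mean of the 8 ribosomal probe sets outside it differed by 0.24. Those 8 include both of MRPS12 (0.49 and 0.35) and MRPS36 (0.17), whose ribosomal names carry the limits given above. The others, of the large subunit, ran from 0.05 (MRPL38) to 0.35 (MRPL10).

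Among import, chaperones and proteases (5 probe sets, 3 positive), the chaperonin HSPD1 had 0.21 (SE 0.23), the prohibitin PHB2 0.13 (SE 0.20) and the protease YME1L1 -0.13 (SE 0.20). Of assembly factors and carriers of the chain (10 probe sets, 8 positive, median 0.18), the coenzyme Q enzymes COQ5 and COQ3 had 0.38 (SE 0.25) and 0.25 (SE 0.20), and the complex III assembly factor UQCC had 0.26 (SE 0.21). In the series of 12 alone, COQ5 (difference 0.81, adjusted p = 0.0935) and the complex I assembly factor ECSIT (0.63, adjusted p = 0.0762) passed. The mitophagy receptor BNIP3L and the fission adaptor FIS1 had 0.17 (SE 0.19) and 0.04 (SE 0.21).

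Some markers of other cells and of fibre types were also called with the series as a block, and none passed with limma without it. Of 6 slow fibre probe sets, 5 were positive. Both of the calcium-binding CASQ2 were called higher in DU×IB with the series as a block (adjusted p of 0.0927 and 0.0887). Without the series their differences were 0.97 (SE 0.29) and 0.95 (SE 0.38), with adjusted p of 0.175 and 0.407. The log2 of the summed slow fibre level ran from 11.93 to 14.38 in IB and from 13.11 to 14.02 in DU×IB. Summed levels, here and below, follow the brightest probe sets of a list most, which for slow fibres is that of MYL3. The list's median difference was 0.07 in the series of 16 and 0.63 in the series of 12. All 3 fibroblast probe sets were positive, and COL1A1 and POSTN were called with the series as a block, at adjusted p of 0.0270 and 0.0634. In the fit without the series their differences were 1.21 (SE 0.37) and 1.29 (SE 0.38), with adjusted p of 0.187 and 0.141. CASQ2, COL1A1 and POSTN are also among the differential genes of the study, drawn from these same arrays, so their calls are not independent evidence. In the series of 12 alone, both CASQ2 probe sets (1.63 and 1.98, adjusted p of 0.0902 and 0.0712), MYL3 (0.78, adjusted p = 0.0956) and the fibroblast marker THY1 (1.14, adjusted p = 0.0762) passed. The median difference of the fibroblast list was 0.81 in the series of 16 and 1.65 in the series of 12. Its log2 summed level ran from 8.27 to 11.71 in IB and from 10.77 to 12.72 in DU×IB. The part of slow fibres and of fibroblasts in the ribosomal differences was not tested.

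No probe set of the other marker lists passed with limma without the series or with it as a block. All 10 of macrophages and monocytes were negative (median -0.42, log2 summed level 9.60 to 12.56 in IB and 9.48 to 10.24 in DU×IB), with 1 at an unadjusted p under 0.05 without the series and 3 with it. Of 6 adipocyte probe sets 2 were positive (12.42 to 13.84 against 12.13 to 13.18), with 1 and 2 at that level. The gene UCP3, a mitochondrial carrier found mainly in skeletal muscle, holds 2 of these 6, and without it 2 of 4 were positive (12.35 to 13.84 against 12.09 to 13.13). Of 8 endothelial ones 5 were positive (10.62 to 12.44 against 10.94 to 12.27), with 0 and 1. Their median difference was -0.22 in the series of 16 and 0.55 in the series of 12, where CLDN5 of the endothelial tight junction (1.04, adjusted p = 0.0902) and 1 of the PECAM1 probe sets (0.65, adjusted p = 0.0993) passed. Both fast fibre probe sets, of ATP2A1, were negative (11.56 to 13.41 against 11.38 to 13.03), and of the 2 blood cell ones 1 was positive (6.06 to 9.31 against 7.10 to 9.09), with none at that level. No marker was listed at 0, and the part of these cells in the differences was not tested.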

How the data were processed

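RNA of each of 28 piglets was hybridized to 1 array. Per the labels, the submitters' processing notes name GCOS and GCRMA. The authors deposited log2 expression values, with background corrected by probe sequence and quantiles equalized over arrays, after a variation filter, and background correction and summarization affect dim probe sets most. No genome build is given in the sources used here, and no coordinates or sequences are printed. The study's tables name 572 of the probe sets, and the array annotation gave names for 2088 more. Another 31 had several genes and 2535 none.

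Genetic types were compared with limma 3.58.1 (R 4.3.3, lmFit and eBayes, two-sided, no covariate) over all 5226 probe sets, with Benjamini-Hochberg adjustment and 0.10 as the threshold. The study's model also holds the hybridization series, which the labels do not name. After the values were seen, it was recovered from the 10 bioB and bioC spike-in probe sets and used as a block and for fits within each series. The number of arrays limits the precision, as an array gives no read depth. Scripts were tested on simulated data. Alternatives were centring, quantile normalization, array weights, a trended and robust prior, the replicate number as a block, leaving out dim probe sets (mean under 4), probe sets for several transcripts, or each piglet in turn. Alternatives of the fit with the series as a block were added after seeing the data.

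Members and lists were chosen with earlier results of these data known. Values are given for members of the study's list, those called, the 4 of lowest p per role, genes with several probe sets, TFAM, CYCS, and the 3 of lowest p per list outside the rule. Levels and correlations were computed with Python 3.11.15, numpy 2.4.6 and scipy 1.17.1.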

Additional observations from a re-analysis of the deposited data

How the results depend on the processing

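No member passed without the series under centring, quantile normalization, array weights, a trended and robust prior, either filter or any of the 28 fits that left out a piglet (lowest 0, highest 0). The count was 4 with the series as a block (of 145 probe sets called in either direction), 1 with that block on centred values (of 122), 5 in the series of 12 (of 229) and 2 with the replicate number as a block (of 145). With the series as a block it was 1 after centring and 2 at an adjusted p under 0.05, and 3 to 5 when each piglet was left out in turn (of 103 to 221 probe sets), the lowest without DU×IB piglet 14 and the highest without IB piglet 2, when MRPS12 was added. It was 4 without the arrays numbered 3 (of 154), 3 after quantile normalization (of 152) and 5 with array weights (of 276). Same-numbered piglets share a series, which the replicate block therefore absorbs. Within the series their deviations correlated from -0.33 to 0.54, over 0.1 in 2 of 14 pairs, so the numbers do not pair the samples. The median difference of the members stayed between 0.07 (series of 16) and 0.34 (series of 12). For other mitochondrial genes the count was 2 in the series of 12. Signs turned for the differences below, among which TIMM50 (probe set A) alone was called in a fit, that of the series of 12. Those of the series of 16 were -0.0400 for ATP5SL, -0.0971 for NDUFS3 (probe set A), -0.12 for ATP5D, -0.0625 for TIMM44, -0.23 and -0.13 for TIMM50, 0.0646 for CYCS and 0.12 for SDHB. Those of the series of 12 were 0.30 for SDHA, -0.0545 for TFAM (probe set A) and -0.26 for ATP5S. ATP5SL had -0.00359 after quantile normalization and TIMM8A -0.0795 with array weights. When each piglet was left out, ranges over 0 were -0.0554 to 0.27 for ATP5S, -0.0188 to 0.16 for ATP5SL, -0.15 to 0.0240 for CYCS, -0.13 to 0.0357 for SDHA, -0.24 to 0.0334 for SDHB, -0.0451 to 0.37 for TFAM, -0.0387 to 0.16 for TIMM50 (probe set B) and -0.0358 to 0.23 for TIMM8A. The cause of these changes was not tested.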
